A study of Mus musculus with 6 samples.

Results

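The immediate early genes Fos, Fosb, Nr4a1, Arc and Btg2 were followed through single-cell libraries of mouse hypothalamic cells. They were chosen by name, and are 5 of the 265 genes of the larger set of primers used in the study, in which each was read through 1 amplicon. The cells came from C57/Bl6 mice of genotype KLB-CRE; Ai14. In such mice Cre follows the Klb gene, which encodes the FGF21 co-receptor beta-klotho, and switches on the red fluorescent protein tdTomato from the Ai14 allele. Each of 3 captures pooled 3 hypothalami, which were kept in ice-cold artificial cerebrospinal fluid, incubated for 30 min in 2 mg/ml pronase held at 37 °C, and passed through a 70 µm strainer. Living tdTomato-positive cells were then sorted through a 130 µm nozzle and loaded on a BD Rhapsody, a system that captures single cells on barcoded beads. Libraries were made with 2 primer panels, one for weakly and one for strongly expressed genes, with some genes in both. The age of the mice is not given in the sources used here, and all samples used here were dissociated, so a level in undisturbed tissue cannot be told apart from a level reached on the way.

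Immediate early genes are switched on within minutes of a stimulus, without new protein synthesis, by transcription factors already present in the cell, such as CREB and SRF. In the hypothalamus Fos and its relatives are widely used to mark neurons that have recently fired. Enzymatic digestion at body temperature is also a known trigger, which is why these genes are watched in dissociated tissue. Fos and Fosb encode leucine zipper proteins that pair with Jun proteins to form the transcription factor AP-1. Nr4a1 encodes an orphan nuclear receptor. Arc encodes a synaptic protein, and its messenger RNA travels to active dendrites. Btg2 encodes an antiproliferative protein that recruits the machinery that shortens poly(A) tails.

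The promoters are shown because Fos, Fosb and Nr4a1 were highest in the same library while Btg2 was lowest there; 4 of the 5 genes have an entry in the RefSeq table used (GRCm38.p6). Each line holds the 250 bases before the start of the gene, 5′ to 3′ on the strand of the gene, in lower case. Capitals mark every TGACG, the core of the cyclic AMP response element, or its complement CGTCA.

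Fos: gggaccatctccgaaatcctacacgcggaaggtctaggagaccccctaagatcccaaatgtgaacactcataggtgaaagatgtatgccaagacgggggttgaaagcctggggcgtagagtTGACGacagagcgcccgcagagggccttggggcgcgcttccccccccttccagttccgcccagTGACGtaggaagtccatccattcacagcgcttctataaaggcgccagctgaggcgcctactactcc
Fosb: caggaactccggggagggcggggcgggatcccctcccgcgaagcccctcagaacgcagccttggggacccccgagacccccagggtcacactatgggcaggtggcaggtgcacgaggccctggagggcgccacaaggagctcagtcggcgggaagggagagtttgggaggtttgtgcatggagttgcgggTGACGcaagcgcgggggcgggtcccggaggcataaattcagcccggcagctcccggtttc
Nr4a1: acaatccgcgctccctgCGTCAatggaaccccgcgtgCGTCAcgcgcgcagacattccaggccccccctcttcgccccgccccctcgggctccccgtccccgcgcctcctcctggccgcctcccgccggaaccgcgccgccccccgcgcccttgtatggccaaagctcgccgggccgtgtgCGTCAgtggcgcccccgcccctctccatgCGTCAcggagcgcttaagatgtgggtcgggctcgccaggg
Btg2: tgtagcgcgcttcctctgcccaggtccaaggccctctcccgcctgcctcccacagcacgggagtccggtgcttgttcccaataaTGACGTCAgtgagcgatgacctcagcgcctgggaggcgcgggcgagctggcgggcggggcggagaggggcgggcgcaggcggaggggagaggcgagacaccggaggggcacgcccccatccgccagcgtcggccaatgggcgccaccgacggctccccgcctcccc

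The Fos window lies at chr12:85473640-85473889 on the plus strand, and the Nr4a1 window at chr15:101266596-101266845 on the plus strand. The Fosb window lies at chr7:19310046-19310295 and the Btg2 window at chr1:134079156-134079405, both on the minus strand. Counted on both strands, TGACG was found 2 times in the Fos window, 1 time in the Fosb window, 4 times in the Nr4a1 window and 2 times in the Btg2 window. At least 1 match stood in 17.8% of the 32851 promoter windows of the same length. The 2 matches in the Btg2 window overlap as the full palindrome TGACGTCA, which begins 166 bases before the start and which 1.55% of all windows hold. The Fos, Fosb and Nr4a1 windows held no TGACGTCA. None of the 4 windows held TGANTCA, the AP-1 motif found in 6.75% of all windows, or a CArG box, the SRF motif found in 1.47%. A match is only a run of letters, and these windows say nothing of elements farther upstream.

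Counts were unique molecular identifiers (UMIs), each standing for 1 captured messenger RNA. The larger set was counted in all 3 panel 2 libraries and, of panel 1, in replicate 1 alone, so panel 2 had 3 captures and panel 1, as the name is used from here on, had that single one. Barcodes with at least 20 UMIs and 5 genes were kept: 44, 43 and 87 in panel 2 of replicates 1, 2 and 3, and 950 in panel 1 of replicate 1, of 1729 in all. Their median depth was 116, 1352 and 1068 UMIs in the panel 2 libraries and 51 UMIs in panel 1. The panel 2 libraries detected 50, 93 and 119 of the 265 genes, and panel 1 detected 157. No barcode occurred in more than 1 of these 4 libraries. Panel 2 of replicate 1 stood apart, with 11423 UMIs in all against 79560 or more in each of the others, and with no tdTomato UMI although the cells were sorted on that protein. tdTomato reached 3.77 UMIs per 1000 in panel 2 of replicate 2, 5.34 in that of replicate 3 and 4.55 in panel 1. Klb itself had no UMI in any of the 4 libraries, so the label of Klb-expressing cells rests on the reporter. The panel 2 tables were made with pipeline version 1.5 and the panel 1 table with 1.3, and panel, version and capture cannot be told apart wherever the panels are compared.

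The 5 genes did not move as a block across the libraries. Btg2 was counted in every library, and with the most UMIs of the 5 in each. Fos and Nr4a1 had no UMI in the panel 2 library of replicate 1 and 159 or more in each of the other 3 libraries. Fosb was counted mainly in panel 1, and Arc mainly in panel 2 of replicate 3. A level below is a gene's UMIs per 1000 UMIs of the library, and its 95% interval is an exact Poisson interval that covers counting error only.

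Fos had no UMI in panel 2 of replicate 1, 7.57 UMIs per 1000 (interval 6.97 to 8.20) in panel 2 of replicate 2, 2.96 (2.65 to 3.30) in panel 2 of replicate 3, and 15.9 (15.1 to 16.7) in panel 1. None of the 4 intervals overlapped, and panel 1 was above all 3 panel 2 libraries. Its UMIs numbered 602, 324 and 1680 in the 3 libraries that had any. The empty library was deep enough for a limit: 3 counts, the number that a count of 0 allows, would be 0.263 per 1000 there.

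Fosb, whose protein pairs with Jun proteins as that of Fos does, had no UMI in panel 2 of replicates 1 and 2 and 9 UMIs, 0.0822 per 1000, in panel 2 of replicate 3. In panel 1 it had 217 UMIs, 2.05 per 1000 (1.79 to 2.34). Panel 1 was therefore again the highest library. For every 100 Fos UMIs there were 0 Fosb UMIs in panel 2 of replicate 2, 2.78 in panel 2 of replicate 3 and 12.9 in panel 1. Each gene has its own primer, so such ratios do not give the ratio in a cell. Between panel 1 and panel 2 they may also differ by panel, pipeline version or capture, which cannot be told apart.

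Nr4a1 had no UMI in panel 2 of replicate 1, 14.4 UMIs per 1000 (13.6 to 15.3) in panel 2 of replicate 2, 1.45 (1.24 to 1.70) in panel 2 of replicate 3, and 23.0 (22.1 to 24.0) in panel 1. The libraries fell in the same order as for Fos. Nr4a1 gave 1.91 UMIs for each Fos UMI in panel 2 of replicate 2, 0.491 in panel 2 of replicate 3 and 1.45 in panel 1. Without the 1 barcode highest in both genes the ratio in panel 2 of replicate 2 was 1.16, below that of panel 1. Fos outnumbered Nr4a1 only in panel 2 of replicate 3, among the 3 libraries that counted both.

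Arc had 0, 3 and 83 UMIs in panel 2 of replicates 1, 2 and 3, and 12 UMIs in panel 1. Its level was 0.758 per 1000 (0.604 to 0.940) in panel 2 of replicate 3, against 0.0377 in panel 2 of replicate 2 and 0.113 (0.0586 to 0.198) in panel 1. Arc was thus the only one of the 5 genes whose highest library was panel 2 of replicate 3. In that library there were 25.6 Arc UMIs for every 100 Fos UMIs, against 0.498 in panel 2 of replicate 2 and 0.714 in panel 1.

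Btg2 ran the other way from Fos and Nr4a1. It had 66.4 UMIs per 1000 (61.7 to 71.3) in panel 2 of replicate 1, 39.4 (38.0 to 40.8) in panel 2 of replicate 2, 51.1 (49.8 to 52.5) in panel 2 of replicate 3, and 27.1 (26.1 to 28.1) in panel 1. All 3 panel 2 libraries were above panel 1. By UMIs it stood 3 of 50, 8 of 93 and 5 of 119 among the genes detected in panel 2 of replicates 1, 2 and 3, and 10 of 157 in panel 1. The 5 genes together took 66.4, 61.4 and 56.4 UMIs per 1000 in the panel 2 libraries and 68.2 in panel 1, while the 4 without Btg2 took 0, 22.0 and 5.25 in the panel 2 libraries and 41.1 in panel 1.

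**Figure D1:**
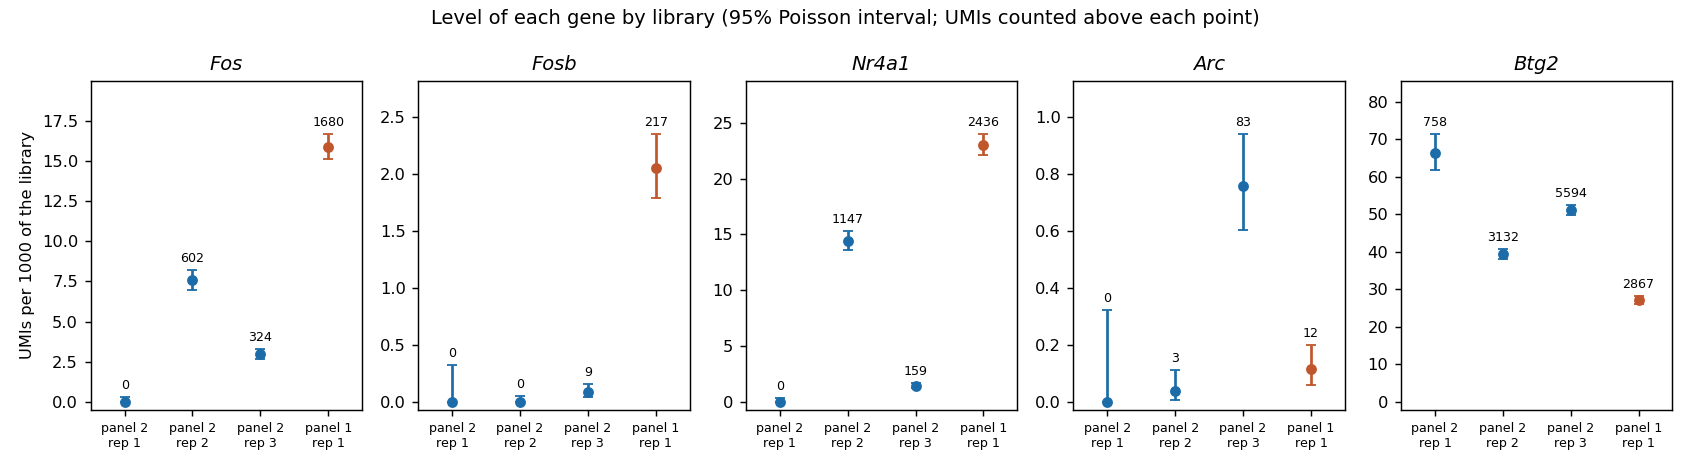
UMIs per 1000 of the library (vertical axis, own scale for each gene) in panel 2 of replicates 1 to 3 (blue) and panel 1 (orange); bars are 95% Poisson intervals and the numbers are UMIs counted. Fos, Fosb and Nr4a1 were highest in panel 1, Arc was highest in panel 2 of replicate 3, and Btg2 was lowest in panel 1.

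The panels were compared on summed counts with the quasi-likelihood test of edgeR and Benjamini-Hochberg adjustment, over the 157 genes that passed its filter on low counts, the 5 genes among them. Of these, 2 were called at an adjusted p under 0.05, which is 1.27%, and neither was one of the 5. They were Fn1 and Slco1c1, both lower in panel 2; plain library totals in place of edgeR's TMM factors also gave 2, with 1 higher and 1 lower. Fos averaged 3.51 ± 3.81 UMIs per 1000 in panel 2 (SD, n = 3 captures) and 15.9 in panel 1, a log2 fold change of -2.65 with a standard error of 3.33. Nr4a1 averaged 5.29 ± 7.94 in panel 2 and 23.0 in panel 1, a log2 fold change of -2.61 with a standard error of 2.64. On the log2 scale both standard errors were thus larger than the fold changes they belong to, and the adjusted p from edgeR was 0.999 for Fos and 0.950 for Nr4a1.

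Btg2 averaged 52.3 ± 13.5 UMIs per 1000 in panel 2 (SD, n = 3) and 27.1 in panel 1, and its log2 fold change was 0.18 with a standard error of 1.15 (adjusted p of 0.999 from edgeR). Fosb averaged 0.0274 ± 0.0475 in panel 2 and 2.05 in panel 1, with an adjusted p of 0.879. Arc averaged 0.265 ± 0.427 in panel 2 and 0.113 in panel 1, with an adjusted p of 0.999. The fold changes depend on the scaling and the fit. In edgeR the median log2 fold change of the 157 tested genes was -0.54 with TMM and 0.06 with library totals, where Btg2 was at 0.98. In DESeq2, which has its own model and tested 173 genes, the median was -0.82. Fos, Fosb and Nr4a1 were lower than those medians in panel 2 and Arc and Btg2 higher in all 3 fits, with none called. Without the panel 2 library of replicate 1, the unadjusted p was 0.0410 for Fos and 0.0395 for Nr4a1, and the adjusted p was 0.306 for both, with 9 genes called of 157. The mean of the other panel 2 captures was then 5.26 UMIs per 1000 for Fos, 7.93 for Nr4a1 and 45.2 for Btg2 (n = 2). Without replicate 2 the means were 1.48 for Fos and 0.726 for Nr4a1, and the log2 fold change of Nr4a1 was -5.37 with a standard error of 4.89, which was not called.

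By the labels, replicate 1 is the capture that was counted for these genes in both panels, though its libraries share no barcode index and its panel 2 library has no tdTomato UMI. At the level of its panel 1 library, its panel 2 library of 11423 UMIs would hold 181 UMIs of Fos and 263 of Nr4a1, and it held 0 of each. Fos was thus at least 60.5-fold lower and Nr4a1 at least 87.7-fold lower in panel 2 than in panel 1, taking 3 counts in the panel 2 library as the limit. Fosb was at least 7.81-fold lower. Btg2 was 2.45-fold higher in panel 2. Genes at 0 were common in that panel 2 library: of the 29 genes with at least 10 UMIs per 1000 in panel 1, 12 were at 0 there, against 8 in panel 2 of replicate 2 and 2 in that of replicate 3. Fos and Nr4a1 belong to those 12, and neither belongs to the 8 or the 2. With 1 library on each side, the comparison has no replicate check.

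The share of barcodes with a gene gave another order than the level. Fos was found in 0%, 100% and 94.3% of barcodes in panel 2 of replicates 1, 2 and 3, and in 60.8% in panel 1 (exact Clopper-Pearson interval 57.7 to 64.0). When each barcode was thinned to 35 UMIs, drawn at random, the Fos share was 0%, 20.9% and 8.05% in panel 2 and 42.9% (39.0 to 46.8) in panel 1. A count of 0 of 44 barcodes, as in panel 2 of replicate 1, allows a share of up to 6.82% by the limit of 3 counts and 8.04% by the exact interval, in barcodes with a median of 116 UMIs. At equal depth panel 1 was thus above every panel 2 library, as it was for the level. Thinning left out 1 barcode of panel 2 of replicate 1 and 306 barcodes of panel 1.

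Nr4a1 was found in 0%, 100% and 77.0% of barcodes in the panel 2 libraries and in 69.6% in panel 1. At 35 UMIs its share was 0%, 25.6% and 4.60% in panel 2 and 54.5% (50.6 to 58.4) in panel 1. Btg2 was found in 100% of barcodes in each panel 2 library and in 79.6% in panel 1, and at 35 UMIs in 93.0%, 51.2% and 83.9% in panel 2 and in 61.5% in panel 1. For Btg2 the panels overlapped at equal depth, since panel 1 lay between panel 2 of replicate 2 and panel 2 of replicate 3.

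Arc and Fosb gave few UMIs at 35 UMIs per barcode. Arc was found in 57.5% of barcodes in panel 2 of replicate 3 and in 0.737% in panel 1. Fosb was found in 10.3% of barcodes in panel 2 of replicate 3 and in 14.0% in panel 1, and at 35 UMIs in none and in 5.12%. A barcode of panel 2 held 1, 3.07 and 3.39 of the 5 genes on average in replicates 1, 2 and 3, and one of panel 1 held 2.25. At 35 UMIs these means were 0.930, 0.977 and 1 in panel 2 and 1.64 in panel 1. All 5 genes were found together in 5 barcodes of panel 2 of replicate 3 and in 3 barcodes of panel 1.

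**Figure D2:**
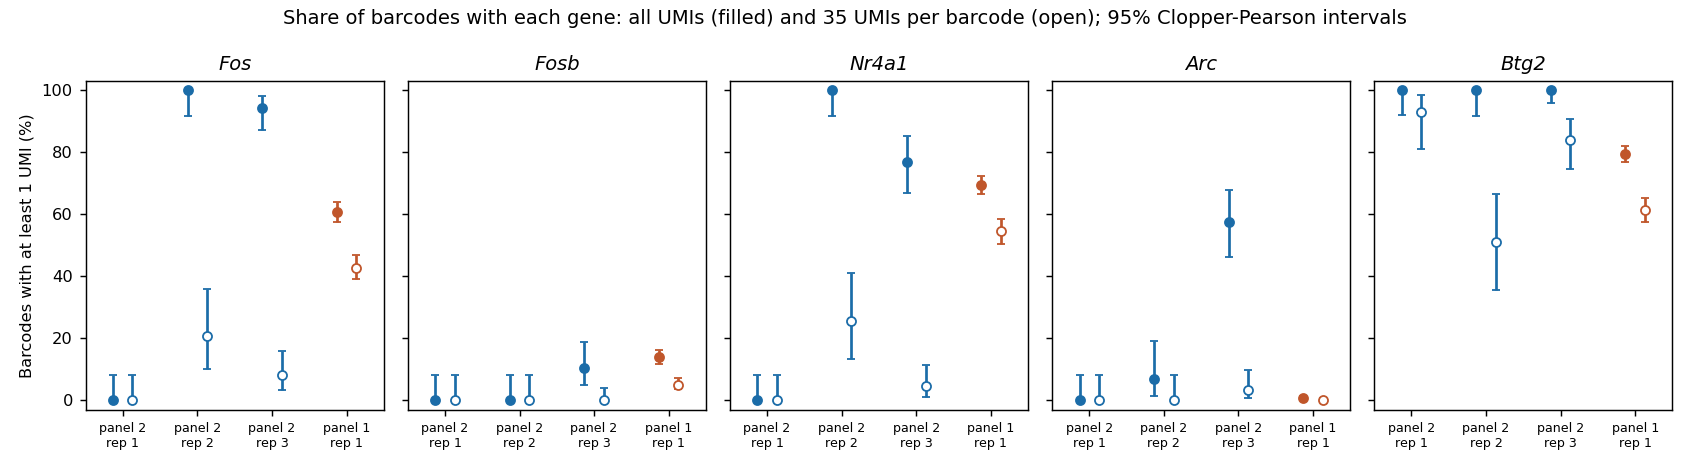
Share of barcodes with at least 1 UMI of each gene (vertical axis, percent), with all UMIs (filled) and at 35 UMIs per barcode (open), in panel 2 of replicates 1 to 3 (blue) and panel 1 (orange), with 95% Clopper-Pearson intervals. Fos and Nr4a1 shares were 94.3% and 77.0% or more in panel 2 of replicates 2 and 3 with all UMIs, and below panel 1 in all 3 panel 2 libraries at equal depth.

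In panel 1 the intervals of Fos and of Btg2 overlapped across all classes of barcode depth, and those of Nr4a1 and Fosb did not. Fos had 15.1 UMIs per 1000 in the 461 barcodes of 20 to under 50 UMIs, 14.4 in the 216 of 50 to under 100, 17.5 in the 148 of 100 to under 200 and 15.9 in the 125 of 200 or more. Nr4a1 had 22.6, 25.3, 18.8 and 24.2 in the same classes, and Btg2 had 28.6, 25.7, 28.4 and 26.6. Nr4a1 was lowest in the class of 100 to under 200 UMIs, where its interval of 17.0 to 20.8 lay below those of the classes on either side of it in depth. Fosb was highest in that class at 3.85 (3.06 to 4.78), against 1.49 to 1.97 in the other kept classes, and the class holds a barcode with 47 Fosb UMIs. The 605 barcodes under 20 UMIs, which were left out and had a median of 11 UMIs, gave 15.5 for Fos (12.7 to 18.8), 24.5 for Nr4a1 (20.9 to 28.6) and 25.9 for Btg2 (22.2 to 30.0), within the range of the kept classes. Fosb, at 0.739 (0.240 to 1.72) from 5 UMIs, lay below it. No cell type here is known to lack these genes, so no background share from such cells was set beside these values, and the part of free RNA in them was not tested.

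**Figure D3:**
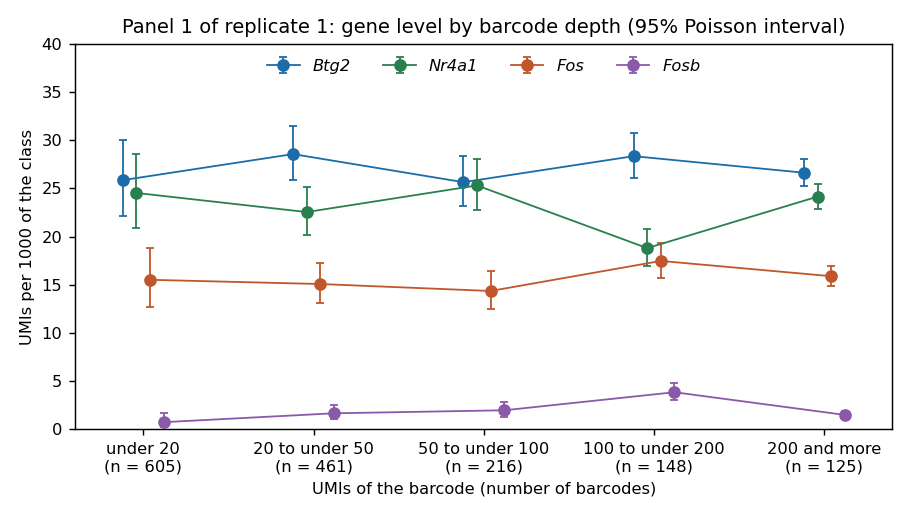
Level of Btg2, Nr4a1, Fos and Fosb (vertical axis, UMIs per 1000 of the class) in panel 1 by UMIs of the barcode (horizontal axis), with 95% Poisson intervals; the leftmost class was left out of all other values. Fos lay between 14.4 and 17.5 in the 5 classes, and Nr4a1 between 18.8 and 25.3.

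The spread of each gene over barcodes was set against counting alone, as the chi-square of its counts given each barcode's depth, divided by its degrees of freedom. A value of 1 is the spread of counting alone, and a larger one grows with a gene's mean count, so it does not rank the genes. In panel 2 of replicate 3 it was 0.983 for Nr4a1, which had 1.83 UMIs per barcode, and 1.23 for Arc. At these counts Nr4a1 was thus spread over the 87 barcodes about as counting alone would spread it. It was 2.57 for Fos and 17.1 for Btg2 there, with 3.72 and 64.3 UMIs per barcode. In panel 2 of replicate 2 the values were 6.06 for Fos, 36.0 for Nr4a1 and 41.6 for Btg2, and in panel 1 they were 4.18, 5.16 and 3.82, all above 1.

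Single barcodes carried much of some totals. The deepest barcode of panel 2 of replicate 2, with 11434 UMIs, held 597 of the 1147 Nr4a1 UMIs, or 52.0%. Ugt8a and Bcas1, genes of myelinating oligodendrocytes, were the first and the third gene of that barcode with 935 and 536 UMIs, and Nr4a1 was the second. Without it the Nr4a1 level of the library was 8.07 per 1000 (7.41 to 8.78), 1.79 times lower than with it. Fos in that barcode numbered 128 UMIs, 21.3% of the library's Fos, and the Fos level without it was 6.96.

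Btg2 in panel 2 of replicate 1 was concentrated too. One barcode of 1379 UMIs held 275 of its 758 Btg2 UMIs, or 36.3%, after Fcer1g with 387. Without it the level was 48.1 per 1000 (43.9 to 52.6), and panel 2 of replicate 3, at 51.1, was then the highest library. Its chi-square per degree of freedom was 10.3 with that barcode and 0.774 without it.

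Panel 1 of replicate 1 held small numbers of barcodes that were rich in 1 of the genes. With at least 10 UMIs of a gene making up at least 10% of the barcode, there were 5 such barcodes for Fos, 12 for Nr4a1, 12 for Btg2, 1 for Fosb and 0 for Arc, of 950. They held 17.5% of the Fos UMIs, 17.4% of the Nr4a1 UMIs and 14.2% of the Btg2 UMIs. No barcode was rich in both Fos and Nr4a1, 1 was rich in Fos and Btg2, and 1 in Nr4a1 and Btg2. With 5 and 12 such barcodes of 950, overlap would be rare even for unrelated genes. These overlaps therefore say nothing of how the genes relate. The same limits were met at least once by 55 genes of the larger set, and most often by Bcas1, in 105 barcodes.

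The barcode with the most Fos in panel 1 had 129 Fos UMIs of 856, with 8 of Fosb and 28 of Nr4a1. The next had 60 Fos UMIs of 186, with 1 of Fosb, 2 of Nr4a1 and 7 of tdTomato. Fosb was highest in another barcode, which had 47 Fosb UMIs of 171 and no Fos UMI. That barcode held 21.7% of all Fosb in the library, and the Fosb level without it was 1.61 per 1000. The Nr4a1 leader had 92 Nr4a1 UMIs of 363 and 1 Fos UMI. Arc in panel 1 was found in 7 barcodes, and 1 of them held 6 of its 12 UMIs.

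None of the 43 and 87 barcodes of panel 2 of replicates 2 and 3 was rich in Fos by the limits above. At 5 such barcodes of 950 in panel 1, finding none among so few is no sign of a difference. The highest Fos share of a barcode was 30.0 UMIs per 1000 in panel 2 of replicate 2 and 22.3 in that of replicate 3, against 333 in panel 1. Their median barcode had 5.92 and 2.54 Fos UMIs per 1000, and that of panel 1 had 11.1. Depth and the number of barcodes differ between these libraries, and a highest value tends to rise with that number. In a barcode of 20 UMIs 1 UMI already counts as 50 per 1000.

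**Figure D4:**
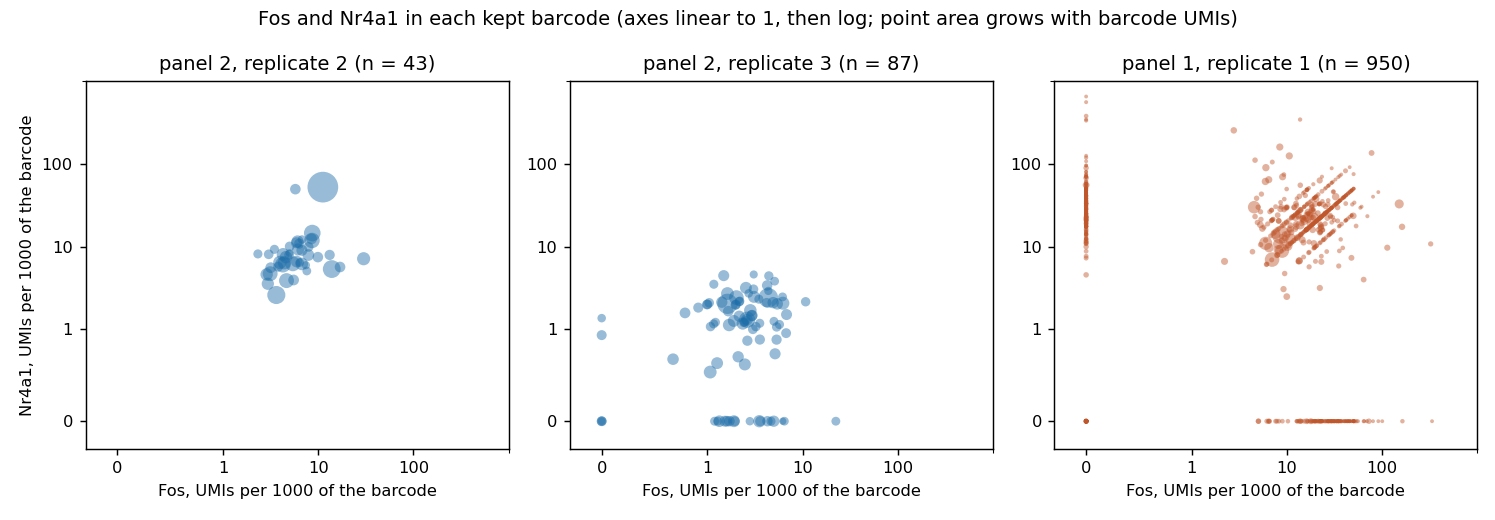
Fos (horizontal axis) and Nr4a1 (vertical axis) in each kept barcode, as UMIs per 1000 of that barcode, in panel 2 of replicates 2 and 3 (blue) and panel 1 (orange); axes are linear to 1 and logarithmic above, point area grows with depth, and the diagonal lines of points in panel 1 come from small whole numbers of UMIs. One large point in panel 2 of replicate 2 is the barcode with 597 Nr4a1 UMIs.

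Fos and Nr4a1 showed no steady relation over barcodes of equal depth. At 35 UMIs the Pearson correlation of Fos with Nr4a1 was -0.173 over 43 barcodes of panel 2 of replicate 2, -0.062 over 87 of panel 2 of replicate 3 and -0.059 over 644 of panel 1. Barcodes share the library they come from and are no replicates, so these values are descriptions. The panel 2 values rest on 9 and 8 thinned Fos UMIs and 14 and 4 of Nr4a1. With a second random draw they were 0.220 and -0.062, and that of panel 1 was -0.029.

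Fos and Nr4a1 were found together in 22.7% of the thinned barcodes of panel 1, and the product of their shares was 23.4%. Barcodes that all had the same profile would give a correlation of -0.020 there, since UMIs of a fixed total compete. All 10 pairs of the 5 genes lay between -0.059 and 0.029 in panel 1, from Fos with Nr4a1 to Fos with Btg2. At 450 UMIs, which only the panel 2 libraries of replicates 2 and 3 reach in every barcode, Fos with Nr4a1 gave 0.044 and 0.078. Fos with Btg2 gave 0.162 and -0.115 at that depth, and Nr4a1 with Btg2 gave -0.093 and 0.050.

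The 3 genes that went most closely with Fos at 35 UMIs had no gene in common between any pair of libraries. They were picked from 53, 50 and 61 genes in panel 2 of replicates 2 and 3 and panel 1. Unrelated lists of 3 would mostly share none either. For panel 2 of replicate 2, on 9 Fos UMIs, they were the smooth muscle actin gene Acta2 (0.288), Pigv (0.246) and Gm13498 (0.232), with Coro7 lowest at -0.287. At 450 UMIs these 3 were at -0.130, 0.056 and -0.045, and the highest were Bbs9 (0.550) and the glucose transporter gene Slc2a1 (0.503), which without 1 barcode were at 0.220 and 0.004. For panel 2 of replicate 3, on 8 Fos UMIs, they were Bcas1 (0.299), Coro7 (0.148) and the clock gene Bhlhe41 (0.144), with Tmem18 lowest at -0.196. At 450 UMIs Bcas1 was at -0.053, Bhlhe41 at -0.069 and Coro7 at 0.196, or -0.139 without 1 barcode. In panel 1 they were tdTomato (0.112), Atp9b (0.099) and Prrc2a (0.090), with the precursor gene Cspg4 lowest at -0.100.

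The tdTomato value rests on a few barcodes. In panel 1 the 92 thinned barcodes with tdTomato had 22.0 Fos UMIs per 1000 (17.2 to 27.8), and the 552 without it had 14.9 (13.2 to 16.7). Without the 2 barcodes highest in Fos, both with tdTomato, 90 barcodes with tdTomato had 17.8 (13.4 to 23.1), an interval that overlaps that of the barcodes without it, and the correlation was 0.024. Nr4a1 had 18.0 per 1000 (13.7 to 23.3) with tdTomato and 25.3 (23.1 to 27.7) without it. Btg2 had 21.4 (16.7 to 27.1) with it and 27.9 (25.6 to 30.4) without it, and both pairs of intervals overlapped. In the panel 2 libraries tdTomato was found at 35 UMIs in 0, 7 and 18 barcodes, with at most 2 Fos UMIs among them.

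The genes that went with Nr4a1 at 35 UMIs in panel 2 of replicate 2 were Ermn (0.604), Ugt8a (0.568) and Bcas1 (0.363), all genes of oligodendrocytes, with Gm13498 lowest at -0.290. At 450 UMIs the growth factor receptor gene Fgfr2 (0.727) and Nes (0.666) were highest. Only 2 barcodes stood out there, with 25 and 23 thinned Nr4a1 UMIs against a median of 4. Without both, Fgfr2 was at 0.254, and Ugt8a, at 0.562 with them, was at 0.035.

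In panel 2 of replicate 3 the genes that went with Nr4a1 included Cables1 (0.189) and Snx30 (0.158), on 4 Nr4a1 UMIs, with the splicing factor gene Sf1 lowest at -0.243. At 450 UMIs Cables1 was at 0.061, and Snx30 was the lowest of 96 genes at -0.212. In panel 1 they were the BMP receptor gene Bmpr1a (0.223), the chemerin gene Rarres2 (0.149) and the clock gene Bhlhe40 (0.056), with the corepressor gene Trim28 lowest at -0.097. Bmpr1a was the only one of these 3 whose value did not fall without the 2 barcodes highest in Nr4a1, at 0.250, against 0.088 for Rarres2 and -0.010 for Bhlhe40.

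In panel 1 Fos had overlapping intervals in barcodes with and without each of 9 lists of cell type markers. Nr4a1, Btg2 and Fosb had intervals that stood apart for some of the lists. How often other genes stand apart for the same lists was not counted, so this does not set the 3 genes off from the rest. Fosb had 3.57 (2.33 to 5.23) with a mural cell marker and 0.983 (0.550 to 1.62) without one. These rest on 26 UMIs in 18 barcodes and on 15 UMIs in 15 barcodes. The share of barcodes with Fosb was 8.65% (5.21 to 13.3) with the marker and 3.44% (1.94 to 5.61) without it, and these intervals overlapped. The barcode with 47 Fosb UMIs was not left out here. Fos had 18.0 UMIs per 1000 (13.2 to 24.0) in the 73 thinned barcodes with a neuronal marker and 15.6 (13.9 to 17.4) in the 571 without one. It had 16.6 with the myeloid gene Fcer1g and 15.0 without it, and 16.1 with and 14.1 without an endothelial marker. All of these Fos intervals overlapped, as they did for the other 6 lists. Btg2 had 25.2 (23.0 to 27.6) in the 555 barcodes with an oligodendrocyte marker and 37.9 (31.4 to 45.4) in the 89 without one. Its share of these barcodes was 61.1% (56.9 to 65.2) and 64.0% (53.2 to 73.9), with overlapping intervals. Nr4a1 had 23.0 (20.9 to 25.2) with an oligodendrocyte marker and 32.4 (26.4 to 39.4) without one, and 21.7 (19.3 to 24.4) with Fcer1g and 27.7 (24.5 to 31.3) without it. With an endothelial marker Nr4a1 had 23.3 (21.2 to 25.5), and without one 33.0 (25.9 to 41.3). The share of barcodes with Nr4a1 ran the other way, at 56.0% with and 44.9% without an oligodendrocyte marker and at 54.9% with and 50.8% without an endothelial one, and both pairs of intervals overlapped. A barcode picked for a marker has given at least 1 of its 35 UMIs to it, and most barcodes held markers of several types, so these classes are not cell types.

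The marker lists differed between libraries as well. The single myeloid marker measured, Fcer1g, took 121, 83.5 and 98.8 UMIs per 1000 in panel 2 of replicates 1, 2 and 3, and 26.9 in panel 1. The 3 endothelial markers together took 1.58, 9.82 and 7.04 in panel 2 and 85.2 in panel 1, with Slco1c1 at 0 in all 3 panel 2 libraries. Of the 7 neuronal markers 1, 0 and 1 were above 0 in panel 2, with 15.6, 0 and 1.38 UMIs per 1000, and 5 in panel 1 with 4.06. With all barcodes, Btg2 ranked the libraries in the order that Fcer1g did. In panel 2 of replicate 1 the barcode of 1379 UMIs weighed on both genes, with 275 UMIs of Btg2 and 387 of Fcer1g, its leading gene. Panel 1, where Fos and Nr4a1 were highest, was also highest for the markers of tanycytes and ependyma (65.6), precursors (44.3) and fibroblasts (6.54). Panel 2 of replicate 1, with no UMI of Fos or Nr4a1, had 52.3, 42.5 and 0 for these lists. Its Rarres2 (52.3) and Cspg4 (42.5), from the first 2 lists, were above those of panel 1 (41.7 and 40.4). That library was the highest for the oligodendrocyte (95.8), mural cell (49.8) and astrocyte (22.8) lists, with 1 marker of each above 0. Panel 1 had 64.7, 12.6 and 20.6 for these. The part of these differences in the levels of the 5 genes was not tested.

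Few other genes of this kind were measured. A list of 62 immediate early and stress genes, which holds Jun, Junb, Egr1, Ier2, Atf3, Dusp1 and heat shock genes, had 8 in the larger set, the 5 described above and Per2, Mt2 and Vgf. Per2, a clock repressor that also responds to CREB, had 0, 0.490 and 1.44 UMIs per 1000 in panel 2 of replicates 1, 2 and 3, and 4.04 in panel 1. Mt2, a metallothionein gene induced by metals and glucocorticoids, had 0.963, 17.9 and 1.57 in panel 2 and 44.5 in panel 1. Both were highest in panel 1, as Fos and Nr4a1 were. Mt2 also had its highest panel 2 level in replicate 2, while Per2 had it in replicate 3. Vgf, a neuropeptide precursor gene, had no UMI in any library. Neither Per2 (adjusted p = 0.999) nor Mt2 (adjusted p = 0.576) was called by edgeR, against 1.27% of all genes tested.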

How the data were processed

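The deposited values are UMI counts per barcode and amplicon, with no normalization, made by the authors with BD's targeted Rhapsody pipeline in version 1.5 (panel 2) and 1.3 (panel 1 of replicate 1), per the file headers. The submitters' processing notes name the build mm9; the aligner is not given in the sources used here.

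Counts of the larger set (290 amplicons) were summed by gene symbol. In the panel 2 table of replicate 2, 25 of 89 barcodes had no count in the larger set, and 21 that also stood in the panel 1 table of replicate 3 were left out. Panel 2 of replicate 3 listed 1 more gene, Mbp, which was kept in its totals (72.0 UMIs per 1000) and left out of tests. The members and lists were chosen with earlier results of these data known. Replicates were pooled captures, so p-values rest on the spread between the panel 2 captures of pooled animals. That spread was shared across genes, not taken from each gene alone, and the single panel 1 library added nothing to it. Barcodes were not treated as replicates, doublets were not called, and intervals cover counting error only.

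Levels, shares and correlations came from scipy 1.17.1, pandas 2.3.3 and numpy 2.4.6 under Python 3.11.15, and figures from matplotlib 3.10.9. Thinning drew 35 UMIs per barcode without replacement. Summed counts were tested with edgeR 4.0.16 in R 4.3.3 (TMM, filterByExpr, glmQLFit, glmQLFTest, Benjamini-Hochberg) and with DESeq2 1.42.0 as an alternative. The edgeR step was also run on simulated data, with a spread between libraries set far below that of the real fit. That run therefore says nothing of the power of the test here. The fit to the real counts had 2 residual degrees of freedom, infinite prior degrees of freedom and a common biological coefficient of variation of 2.06. Standard errors of the edgeR fold changes were worked back from the statistic of the same test, so they add nothing to its p-value. Named genes were the 5 genes, every measured gene of the list, tdTomato, marker genes, and for Fos and Nr4a1 the 3 highest and the lowest correlate in each library among genes in at least 10% of thinned barcodes, some of which are not reported here. Correlations at 450 UMIs, values without leading barcodes, rich barcodes and promoter motifs were added after the data were seen.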

Additional observations from a re-analysis of the deposited data

Results flagged for a closer look

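Members of the set were counted in barcodes that the comparisons left out. The 605 barcodes of panel 1 of replicate 1 under the limits of 20 UMIs and 5 genes gave 15.5 UMIs per 1000 for Fos (105 UMIs), 24.5 for Nr4a1 (166 UMIs), 25.9 for Btg2 (175 UMIs) and 0.739 for Fosb (5 UMIs), all above the 3 counts that a count of 0 allows. The 21 barcodes of the panel 2 table of replicate 2 that also stand in the panel 1 table of replicate 3 gave 5.92 for Fos (141 UMIs) and 36.6 for Btg2 (873 UMIs), and no UMI of Fosb, Nr4a1 or Arc. The 43 barcodes kept from that table had 14.4 UMIs per 1000 of Nr4a1.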

How the results depend on the processing

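The edgeR count of 2 called genes was 6 with DESeq2 size factors, of 173 genes tested there, and between 0 and 9 when each panel 2 replicate was left out in turn, with 22 genes at an unadjusted p under 0.05 without replicate 1 and 2 without replicate 2. The DESeq2 run also had its own model and did without edgeR's filter on low counts, so more than the size factors differed. None of the 5 genes was called in any of these fits, which leave 1 panel 1 library to share the spread of the panel 2 libraries. The log2 fold change of Btg2, 0.18, lay between -0.034 and 0.246 when each panel 2 replicate was left out, the lowest without replicate 1. Arc did not pass the filter without panel 2 replicate 3. The mean Btg2 share in panel 2, 100%, was 99.5% with the 21 shared barcodes and 76.0% at 35 UMIs, where shallower draws lower any share. The mean Fos with Nr4a1 correlation in panel 2, -0.118, was 0.079 with a second draw and 0.061 at 450 UMIs; it rests on few UMIs. The other levels and shares moved by less than 1 SD between captures, which is wide for 3 captures. Within it, the mean panel 2 share at 35 UMIs fell from 64.8% to 9.66% for Fos (SD 56.1). It fell from 59.0% to 10.1% for Nr4a1 (SD 52.4) and from 21.5% to 1.15% for Arc (SD 31.4), so these shares depend strongly on depth. No paired analysis was possible because only replicate 1 has the larger set in both panels, so a replicate block leaves no residual degrees of freedom. Depth limits Arc and Fosb most: at 35 UMIs Arc had 1 UMI in panel 1.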
